A study of Mus musculus with 6 samples.

Results

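Matrix metalloproteinases (MMPs), ADAMTS proteases, ADAM sheddases and tissue inhibitors of metalloproteinases (TIMPs) were described in tumours grown from UV2237M, a fibrosarcoma line of the mouse. The members were taken by gene symbol alone, as every numbered *Mmp*, *Adamts* and *Adamtsl* gene, *Timp1* to *Timp4*, and *Adam8*, *Adam9*, *Adam10*, *Adam12*, *Adam15*, *Adam17* and *Adam19*. They came to 58 of the 23183 symbols in the count tables. A filter on low counts left 38 members among 12517 tested genes, and it can pass a gene through a single group. Fitted values lay on the higher side in treated tumours in 24 of the 38, against 49.9% of all tested genes, and in 20 of the 38, against 50.1%, when the library untreated 2, described below, was left out.

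RNA was sequenced from 6 tumours of wild-type genotype. The 3 treated tumours received gold nanoclusters (GNC), small clusters of gold atoms, on day 1 and day 7 with near-infrared (NIR) irradiation. The 3 untreated tumours received none. No arm with nanoclusters or light alone is among the samples, so these cannot be told apart. The sources used here do not give the strain, sex or age of the host, the time of harvest, or whether each tumour came from its own animal, so p-values measure only the spread between these samples, which may be technical.

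MMPs are zinc proteases made as inactive precursors that cut collagens, other matrix proteins and cell surface proteins. ADAMTS proteases are secreted relatives that cut proteoglycans and trim procollagens, ADAMTS-like proteins share their other domains but lack the protease, and ADAMs are mostly membrane proteins that release ligands and receptors from the cell surface. TIMPs block MMPs and some ADAMs. In tumours these genes are known from cancer cells, fibroblasts, macrophages and neutrophils, and a bulk sample holds RNA from all of them, so that fewer cells of a type and less RNA per cell cannot be told apart.

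The deposited counts summed to between 4680295 and 8019294 per library. Untreated 2, the library with the lowest total, stood apart. The 5 bins of tested genes by GC content of the longest transcript had medians between 0.77 and -0.80 log2 in untreated 2 over the mean of untreated 1 and 3, with the GC-poor bin at the top. Of the 38 tested members 12 and 10 lay in the 2 most GC-rich bins, and 21 were lowest in untreated 2 among the 6 libraries, as were 39.6% of all tested genes. Its part in the differences below was not tested beyond leaving it out and correcting all libraries for GC content and length. Values without it stand beside the members, and some corrected values are in the closing section. All 9 fibroblast markers, the set nearest to the labelled cell type, were tested, and their summed level was 19303 to 24860 CPM (counts scaled to library size) in treated and 21286 to 26922 CPM in untreated tumours. *Col3a1* made up most of that sum, and of the 9 markers 3 (*Col1a1*, *Col1a2* and *Thy1*) had log2 fold changes above 0 and 6 below, with 3 of the 9 at an unadjusted p under 0.05.

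**Figure D1:**
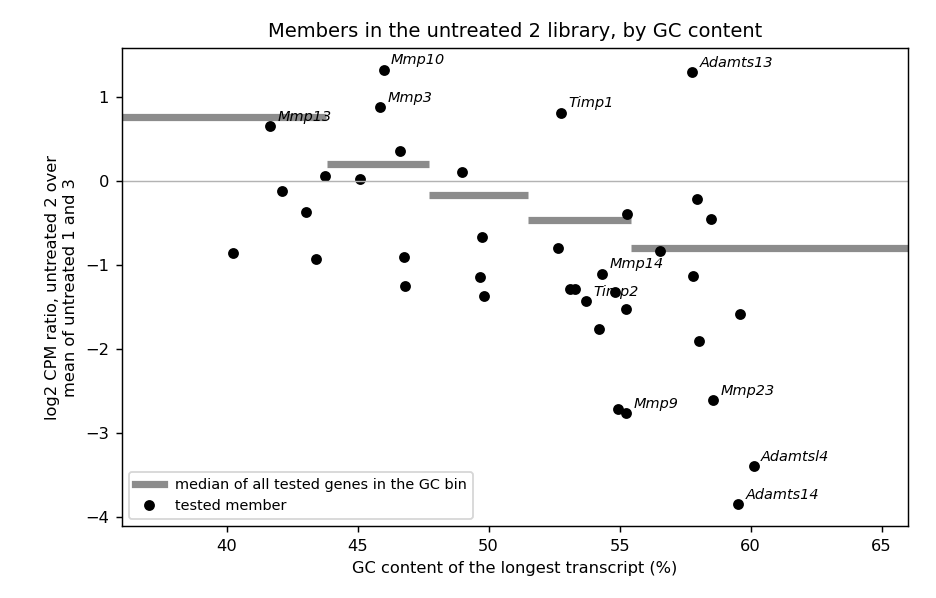
Members in untreated 2 by GC content. Each point is a tested member, with the GC content of its longest transcript (%) on the x axis and the log2 CPM ratio of untreated 2 over the mean of untreated 1 and 3 on the y axis, and grey bars are the medians of all tested genes in 5 GC bins. *Adamts14* (-3.86) and *Adamtsl4* (-3.40) lie lowest, and *Mmp10* (1.33) and *Adamts13* (1.30) highest.

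No member passed edgeR's quasi-likelihood test at a Benjamini-Hochberg adjusted p under 0.05 over all tested genes, where 0% of the genes passed, and the smallest adjusted p of a member was 0.592. An unadjusted p under 0.05 was reached by 9 members of 38 and by 8.17% of all tested genes. Of these, 6 were higher in treated tumours (3.32% of all genes), namely *Mmp13*, *Mmp23*, *Adam12*, *Adam19*, *Adamts2* and *Adamtsl1*, and 3 were lower (4.85%), namely *Adamts5*, *Adamts6* and *Adamts9*. A fold change of at least 2 (1 on the log2 scale) in either direction was fitted for 12 members and 6.33% of all genes. The 3 treated values lay above every untreated value in 4 members (10.6% of all genes) and below every one in 4 (10.2%). DESeq2 called 1 member, *Mmp13*, where it called 0.136% of all genes higher and 0.232% lower, and limma-voom called 0 members. At an unadjusted p under 0.05, DESeq2 had 7 members higher (4.12% of all genes) and 3 lower (6.15%), and limma-voom 5 higher (3.62%) and 3 lower (3.94%). Without untreated 2, edgeR again called 0 members, with 8 higher (9.55% of all genes) and 6 lower (8.85%) at an unadjusted p under 0.05, and DESeq2 had 6 higher (8.76%) and 8 lower (7.25%). Set against untreated 1 and 3 alone, all treated values lay above in 7 members (19.8%) and below in 11 (19.9%).

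**Figure D2:**
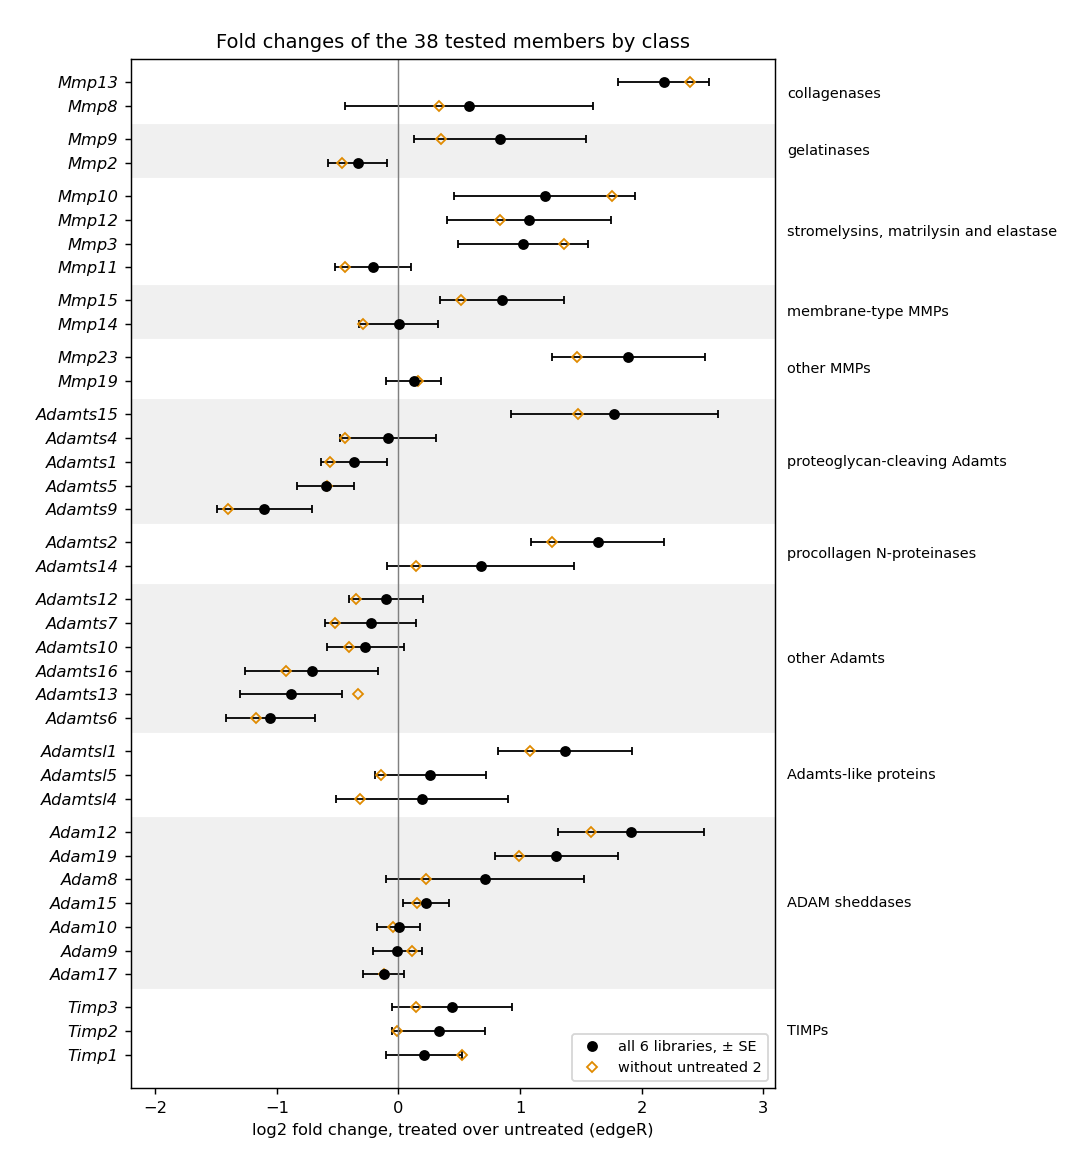
Fold changes of the tested members by class. The x axis is the log2 fold change, treated over untreated, from edgeR, filled points with bars are the fit to all 6 libraries with its standard error, and open diamonds the fit without untreated 2. *Mmp13* lies farthest to the right at 2.18 and *Adamts9* farthest to the left at -1.10, and the diamonds of *Adam10*, *Adamtsl4*, *Adamtsl5*, *Mmp14* and *Timp2* lie below 0 where their points lie above it.

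Among the collagenases, *Mmp13*, the main interstitial collagenase of rodents, had 71.2, 39.0 and 42.8 CPM in treated 1, 2 and 3, against 6.78, 14.9 and 12.1 CPM in untreated 1, 2 and 3. The groups did not overlap, and the lowest treated value was above the highest untreated one by more than the whole untreated range. Its log2 fold change was 2.18 ± 0.37 (SE), with an unadjusted p of 0.000618 and an adjusted p of 0.592 by edgeR, and an adjusted p of 0.000476 by DESeq2. Without untreated 2 the log2 fold change was 2.40 ± 0.34, and edgeR's adjusted p was 0.227. *Mmp8*, the neutrophil collagenase, had 1.61, 1.63 and 6.94 CPM in treated tumours and 0.151, 1.34 and 5.14 CPM in untreated ones. It was highest in the third library of each group, and the groups overlapped. Its log2 fold change was 0.58 ± 1.02 (unadjusted p 0.587, adjusted p 0.842, edgeR), and it was -0.49 without treated 3, 0.33 without untreated 2 and 2.31 without untreated 3. The other collagenases, *Mmp1a* and *Mmp1b*, had at most 3 and 10 counts in any library and were not tested. They are related genes, and whether any reads fitted both was not examined.

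*Mmp13* stands at one end of a cluster of 10 MMP genes on chromosome 9, from 7272514 to 7699585 on mm10, a span of 427 kb. Along the chromosome the order is *Mmp13*, *Mmp12*, *Mmp1b*, *Mmp3*, *Mmp1a*, *Mmp10*, *Mmp8*, *Mmp27*, *Mmp20* and *Mmp7*. Promoters of several of these genes are known to bind AP-1, the dimer of Fos and Jun proteins. The stretches of 250 bases before the start are shown for *Mmp13*, *Mmp3* and *Mmp10*, the tested cluster genes that were highest in treated 1 (RefSeq, GRCm38.p6, plus strand). In capitals are TGANTCA, a looser form of the AP-1 consensus with any base at N, and TATAAA, the letters of a TATA box.
Mmp13, chr9:7272264-7272513: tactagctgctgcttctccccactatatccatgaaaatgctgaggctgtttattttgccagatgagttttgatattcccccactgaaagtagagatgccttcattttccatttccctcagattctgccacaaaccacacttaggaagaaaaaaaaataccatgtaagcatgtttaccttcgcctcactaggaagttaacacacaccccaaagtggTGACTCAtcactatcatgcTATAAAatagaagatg
Mmp3, chr9:7445572-7445821: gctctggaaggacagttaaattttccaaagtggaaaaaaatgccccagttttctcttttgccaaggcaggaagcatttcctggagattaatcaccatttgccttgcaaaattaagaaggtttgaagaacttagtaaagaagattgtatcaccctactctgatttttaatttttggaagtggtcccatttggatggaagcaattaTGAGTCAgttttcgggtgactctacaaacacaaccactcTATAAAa
Mmp10, chr9:7502092-7502341: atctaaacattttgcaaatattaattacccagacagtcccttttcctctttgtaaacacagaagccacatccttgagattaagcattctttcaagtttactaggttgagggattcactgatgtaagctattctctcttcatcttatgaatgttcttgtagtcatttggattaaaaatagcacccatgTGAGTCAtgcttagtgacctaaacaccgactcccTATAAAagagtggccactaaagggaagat
TGANTCA begins at -35 in *Mmp13*, -46 in *Mmp3* and -63 in *Mmp10*, counted back from the start, and TATAAA follows at -16, -7 and -29. These positions rest on the annotated RefSeq start, which can be off. Whether the TATAAA letters serve as a TATA box there was not tested.

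RefSeq windows matched 41 of the 58 members. Windows on chromosome 18, where *Adamts19* lies, were left out for the members but not from the share over all genes. Searched on both strands, with TGANTCA reading the same on each and any start of a gene counted, TGANTCA was in 8 of the 10 cluster genes and in 1 of the 31 other members, *Adam19*, against 7.82% of all genes with such a window. *Mmp8* and *Mmp27* were the cluster genes without these letters in the window. TATAAA was in 7 of the 10 cluster genes, all of them with TGANTCA too, and in 14.3% of all genes. The match is one of letters. The cluster genes are related to each other and not independent draws, so these shares are a description with no test. Cluster genes that have the letters include *Mmp20*, with no count in any library, and *Mmp7*, with 1 count in all.

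The stromelysins *Mmp3* and *Mmp10*, which cut proteoglycans and other matrix proteins and can activate other MMPs, lie close together in that cluster. *Mmp3* had 171.4, 46.0 and 62.5 CPM in treated 1, 2 and 3, against 33.8, 65.9 and 37.97 CPM in untreated 1, 2 and 3. *Mmp10* had 106.9, 17.5 and 23.9 CPM in treated tumours, against 14.2, 36.1 and 14.5 CPM in untreated ones. Both were highest by far in treated 1, and untreated 2 exceeded treated 2 in both, so the groups overlapped. The log2 fold change was 1.02 ± 0.53 for *Mmp3* (unadjusted p 0.0947, adjusted p 0.592, edgeR) and 1.203 ± 0.74 for *Mmp10* (unadjusted p 0.150, adjusted p 0.623, edgeR). Without treated 1 they were 0.24 and -0.052, and without untreated 2 they were 1.36 and 1.76.

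**Figure D3:**
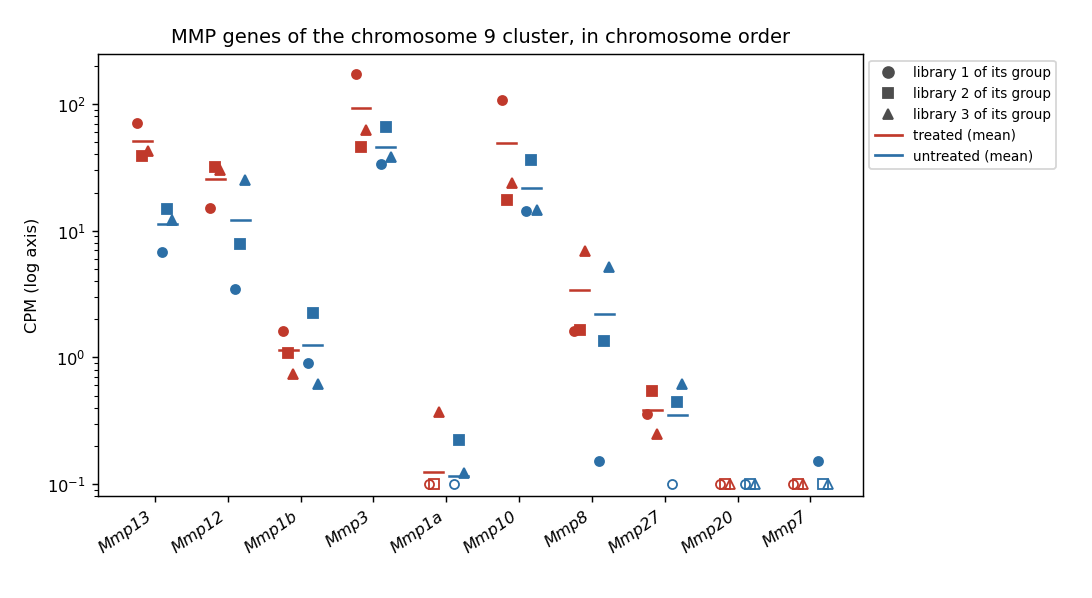
MMP genes of the chromosome 9 cluster in chromosome order. The y axis is CPM on a log scale, treated libraries are left of untreated ones, each symbol is 1 library, bars are means of 3, and open symbols drawn at 0.1 stand for a count of 0. *Mmp13* is the gene whose groups do not overlap among those tested, *Mmp3* and *Mmp10* peak in treated 1, and *Mmp20* has no count.

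*Mmp12*, the macrophage elastase, had 15.2, 32.0 and 30.0 CPM in treated 1, 2 and 3, against 3.47, 7.79 and 25.0 CPM in untreated 1, 2 and 3. *Mmp9*, gelatinase B, a product of neutrophils and macrophages among others, had 42.8, 56.2 and 55.8 CPM in treated tumours, against 18.7, 5.79 and 61.5 CPM in untreated ones. *Adam8*, a sheddase of leukocytes, had 44.6, 51.5 and 62.0 CPM in treated tumours, against 12.1, 6.68 and 77.0 CPM in untreated ones. In all of them untreated 3 reached into or above the treated range while untreated 1 and 2 lay below every treated library. The log2 fold changes were 1.08 ± 0.68, 0.83 ± 0.71 and 0.71 ± 0.81 for *Mmp12*, *Mmp9* and *Adam8*, with adjusted p of 0.623, 0.691 and 0.757 by edgeR. Without untreated 3 they were 2.22, 2.06 and 2.48, and without untreated 2 they were 0.83, 0.35 and 0.23.

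Leukocyte markers differed between the same libraries. The summed level of the neutrophil markers (8 of 9 in the tables) was 83.7, 34.4 and 74.8 CPM in treated 1, 2 and 3 and 13.4, 18.3 and 41.8 CPM in untreated 1, 2 and 3, with *Mpo* and *Elane* at 0 in every library and all 4 tested markers on the higher side. That of the 9 macrophage markers was 666.6, 1335 and 966.2 CPM in treated and 1219, 2604 and 1536 CPM in untreated tumours, with 7 of 9 on the lower side. The macrophage sum was highest in untreated 2, where *Lyz2* gave 1124 CPM of it and *Mmp12* had 7.79 CPM. The 2 macrophage markers on the higher side were *Cd163* and *Cd68*, at log2 fold changes of 0.91 and 0.049. *Cd163* had 14.5, 32.7 and 43.6 CPM in treated 1, 2 and 3, against 12.4, 4.68 and 30.9 CPM in untreated 1, 2 and 3. The part of either cell type in the levels of *Mmp8*, *Mmp9*, *Mmp12* and *Adam8* was not tested.

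*Mmp14* and *Mmp2* were the most abundant MMPs by length. *Mmp14* codes for the membrane-type MMP that, together with TIMP2, activates the precursor of MMP2, or gelatinase A. *Mmp14* had 742.9, 760.7 and 605.8 CPM in treated 1, 2 and 3, against 886.4, 396.7 and 822.8 CPM in untreated 1, 2 and 3. *Mmp2* had 420.6, 492.5 and 325.0 CPM in treated tumours, against 591.4, 430.6 and 539.2 CPM in untreated ones. The groups overlapped in both, and all treated values lay below untreated 1 and 3. The log2 fold change of *Mmp14* was 0.0011 ± 0.33, or -0.29 ± 0.14 without untreated 2, and that of *Mmp2* was -0.34 ± 0.24, or -0.46 ± 0.18 without it, with adjusted p of 0.999 and 0.646 (edgeR, all libraries). *Mmp15*, another membrane-type MMP, had 3.39, 4.75 and 7.07 CPM in treated 1, 2 and 3, against 3.32, 1.11 and 3.80 CPM in untreated 1, 2 and 3, overlapping in treated 1, at 0.85 ± 0.51 on the log2 scale, or 0.51 ± 0.39 with untreated 2 left out, and *Mmp16*, *Mmp17*, *Mmp24* and *Mmp25* were too low to test.

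Of the remaining MMPs, *Mmp23*, which is anchored in the membrane by its N-terminal part, had 3.21, 5.97 and 6.45 CPM in treated 1, 2 and 3, against 1.66, 0.223 and 2.08 CPM in untreated 1, 2 and 3. The groups did not overlap, at a log2 fold change of 1.89 ± 0.63 (unadjusted p 0.0190, adjusted p 0.592, edgeR), although the untreated counts were 11, 1 and 17. *Mmp11*, stromelysin 3, had 44.3, 70.6 and 53.6 CPM in treated 1, 2 and 3, against 85.9, 42.5 and 66.3 CPM in untreated 1, 2 and 3, at a log2 fold change of -0.21 ± 0.31 (unadjusted p 0.521, adjusted p 0.811, edgeR). *Mmp19* had 28.6, 44.8 and 40.9 CPM in treated 1, 2 and 3, against 33.5, 36.7 and 34.8 CPM in untreated 1, 2 and 3, at 0.12 ± 0.22 (unadjusted p 0.596, adjusted p 0.846, edgeR). The groups overlapped in both and their means differed by less than the spread between replicates. Without untreated 2 the log2 fold changes were -0.44 ± 0.21 for *Mmp11*, 0.16 ± 0.19 for *Mmp19* and 1.47 ± 0.44 for *Mmp23*. Of the exon bases of *Mmp19*, 22.3% lie opposite *Tmem198b*, whose reads cannot be told apart without the strand setting.

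**Figure D4:**
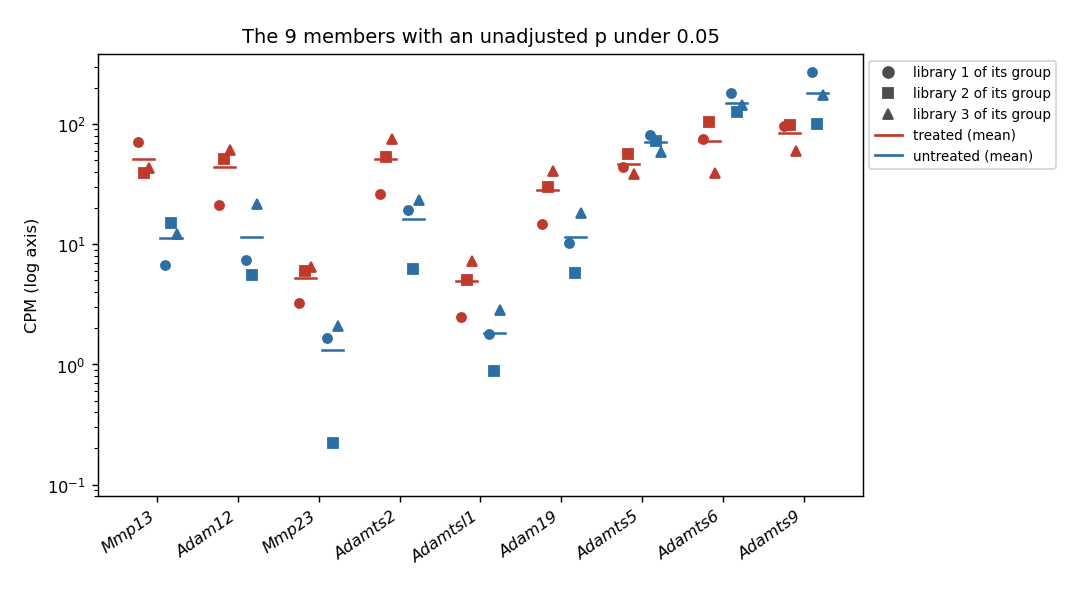
The 9 members with an unadjusted p under 0.05. The y axis is CPM on a log scale, treated libraries are left of untreated ones, symbols mark library 1, 2 or 3 of a group and bars are means of 3. In *Adam12*, *Adam19*, *Adamts2*, *Adamtsl1* and *Mmp23* the circle, treated 1, is the lowest treated library, and in *Adamts5*, *Adamts6* and *Adamts9* the lowest treated library is the triangle, treated 3.

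Of the 5 tested ADAMTS proteases that cut proteoglycans, *Adamts5* and *Adamts9* were the ones with an unadjusted p under 0.05, both lower in treated tumours. *Adamts9*, which cuts versican, had 96.2, 98.6 and 59.2 CPM in treated 1, 2 and 3, against 268.9, 100.4 and 175.4 CPM in untreated 1, 2 and 3. The groups did not overlap, though untreated 2 lay just above treated 2. Of the exon bases of *Adamts9*, 9.18% lie opposite *A730049H05Rik* and 2.82% opposite *Gm15737*. Its log2 fold change was -1.10 ± 0.39 (unadjusted p 0.0259, adjusted p 0.592, edgeR). Without untreated 2 it was -1.40 ± 0.25 with an adjusted p of 0.227 by edgeR, and DESeq2, which called 1.19% of all genes lower there, called it at an adjusted p of 6.55e-05.

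*Adamts5*, a main aggrecan-cutting enzyme of mice, had 44.1, 56.6 and 38.6 CPM in treated tumours, against 80.3, 72.1 and 58.5 CPM in untreated ones. Every treated value lay below every untreated value, at a log2 fold change of -0.60 ± 0.23 (unadjusted p 0.0360, adjusted p 0.592, edgeR), or -0.59 ± 0.20 without untreated 2. Its neighbour on chromosome 16, *Adamts1*, had 119.8, 157.5 and 111.6 CPM in treated and 209.3, 120.0 and 172.1 CPM in untreated tumours, overlapping through untreated 2. Its log2 fold change was -0.37 ± 0.27 (unadjusted p 0.214, adjusted p 0.653, edgeR), or -0.56 ± 0.17 without untreated 2 (unadjusted p 0.0110, adjusted p 0.227, edgeR). *Adamts4*, another aggrecanase, had 84.1, 93.1 and 79.2 CPM in treated 1, 2 and 3, against 121.8, 40.1 and 109.6 CPM in untreated 1, 2 and 3. Untreated 2 lay below all other libraries, and the log2 fold change of -0.085 ± 0.40 was -0.44 ± 0.12 without it. *Adamts15* went the other way, with 1.79, 14.0 and 18.2 CPM in treated 1, 2 and 3, against 1.96, 1.56 and 6.12 CPM in untreated tumours, so that treated 1 lay within the untreated range and the log2 fold change was 1.78 ± 0.85 (unadjusted p 0.0738, adjusted p 0.592, edgeR), or 1.47 ± 0.83 without untreated 2.

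*Adamts6*, an ADAMTS protease related to *Adamts10*, had 74.4, 103.6 and 39.1 CPM in treated 1, 2 and 3, against 180.7, 125.6 and 144.2 CPM in untreated ones. The groups did not overlap, and the log2 fold change was -1.05 ± 0.37 (unadjusted p 0.0233, adjusted p 0.592, edgeR). The 5 others tested with it, *Adamts7*, *Adamts10*, *Adamts12*, *Adamts13* and *Adamts16*, also had log2 fold changes below 0, between -0.11 and -0.88, and overlapped between the groups. *Adamts7*, which cuts cartilage oligomeric matrix protein, had 82.5, 100.5 and 53.2 CPM in treated 1, 2 and 3, against 112.0, 51.2 and 112.7 CPM in untreated 1, 2 and 3, at a log2 fold change of -0.23 ± 0.37 (unadjusted p 0.563, adjusted p 0.829, edgeR). *Adamts12*, its closest relative, had 63.6, 81.7 and 55.4 CPM in treated 1, 2 and 3, against 90.3, 45.4 and 79.97 CPM in untreated 1, 2 and 3, at -0.11 ± 0.30 (unadjusted p 0.737, adjusted p 0.910, edgeR). In both, untreated 2 was the lowest library and untreated 1 and 3 lay close to or above the highest treated one, and without untreated 2 the log2 fold changes were -0.52 ± 0.23 for *Adamts7* and -0.35 ± 0.17 for *Adamts12*. Those of *Adamts6*, *Adamts10* and *Adamts16* were -1.17, -0.41 and -0.93. *Adamts10* had 4.999, 5.43 and 8.18 CPM in treated 1, 2 and 3, against 8.89, 6.01 and 7.59 CPM in untreated 1, 2 and 3, and *Adamts16* had 1.61, 3.12 and 0.868 CPM in treated 1, 2 and 3, against 3.92, 2.004 and 3.18 CPM in untreated 1, 2 and 3. *Adamts13*, which cuts von Willebrand factor, had 26.1, 19.8 and 15.4 CPM in treated tumours, against 23.1, 62.6 and 27.7 CPM in untreated ones. Untreated 2 stood far above the other libraries, and its log2 fold change was -0.88 ± 0.42, or -0.33 ± 0.23 without untreated 2. Over these 6 genes the median was -0.49, beside -0.0010 over all tested genes, a description with no test.

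The procollagen N-proteinases trim the amino end of fibrillar procollagens. *Adamts2* had 26.2, 53.0 and 75.1 CPM in treated 1, 2 and 3, against 19.3, 6.23 and 23.5 CPM in untreated 1, 2 and 3. The groups did not overlap, and treated 1 lay closer to untreated 3 than to the other treated libraries. Its log2 fold change was 1.64 ± 0.55 (unadjusted p 0.0197, adjusted p 0.592, edgeR). Without untreated 2 it was 1.26 ± 0.39, with an adjusted p of 0.227 by edgeR and 0.0386 by DESeq2, which called 0.81% of all genes higher there. *Adamts14* had 66.8, 56.9 and 63.4 CPM in treated tumours, against 56.5, 3.78 and 55.8 CPM in untreated ones. Treated 2 and untreated 1 nearly met, untreated 2 lay far below all others, and the log2 fold change of 0.68 was 0.14 ± 0.12 without untreated 2. *Adamts3* had at most 12 counts in a library and was not tested.

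Of the ADAMTS-like proteins, *Adamtsl1* had 2.50, 5.02 and 7.19 CPM in treated 1, 2 and 3, against 1.81, 0.891 and 2.82 CPM in untreated tumours, a log2 fold change of 1.37 ± 0.55 (unadjusted p 0.0408, adjusted p 0.592, edgeR), or 1.08 ± 0.51 without untreated 2 (unadjusted p 0.0667, adjusted p 0.299, edgeR). Treated 1 lay below untreated 3. *Adamtsl4* and *Adamtsl5*, proteins tied to elastic microfibrils, were lowest by far in untreated 2. *Adamtsl4* had 33.2, 42.2 and 29.1 CPM in treated 1, 2 and 3, against 44.8, 4.01 and 41.9 CPM in untreated 1, 2 and 3, and *Adamtsl5* had 45.0, 46.0 and 46.3 CPM in treated 1, 2 and 3, against 46.4, 13.4 and 54.0 CPM in untreated 1, 2 and 3. Their log2 fold changes of 0.19 and 0.26 were -0.32 and -0.14 without untreated 2.

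Among the ADAM sheddases, the meltrins *Adam12* and *Adam19* were the members at an unadjusted p under 0.05. *Adam12*, which cuts growth factor precursors and binding proteins, had 21.2, 50.8 and 60.6 CPM in treated 1, 2 and 3, against 7.38, 5.57 and 21.8 CPM in untreated 1, 2 and 3. *Adam19*, a sheddase of neuregulins, had 14.8, 29.7 and 40.7 CPM in treated tumours, against 10.2, 5.79 and 18.2 CPM in untreated ones. In both, treated 1 lay below untreated 3 and treated 2 and 3 lay above every other library. The log2 fold changes were 1.91 ± 0.60 for *Adam12* (unadjusted p 0.0151) and 1.30 ± 0.50 for *Adam19* (unadjusted p 0.0363), with an adjusted p of 0.592 for each by edgeR. Without untreated 2 they were 1.58 ± 0.52 and 0.99 ± 0.41. Of the exon bases of *Adam19*, 8.25% lie opposite *Gm16033* and 6.75% opposite *Gm16034*.

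The general sheddases differed little. *Adam10*, which cuts Notch and cadherins, had 161.0, 169.7 and 157.2 CPM in treated tumours, against 163.2, 153.8 and 169.9 CPM in untreated ones, and the fitted log2 difference was 0.0022 ± 0.18. *Adam17*, which releases tumour necrosis factor and ligands of the EGF receptor, had 102.5, 104.7 and 104.0 CPM in treated tumours, against 110.5, 114.2 and 113.8 CPM in untreated ones. The *Adam17* values did not overlap, at a log2 fold change of -0.12 ± 0.17 (unadjusted p 0.496, adjusted p 0.798, edgeR). *Adam9* had 125.0, 130.2 and 144.0 CPM in treated 1, 2 and 3, against 114.1, 157.0 and 130.4 CPM in untreated 1, 2 and 3, at -0.0085 ± 0.20 (unadjusted p 0.968, adjusted p 0.990, edgeR). *Adam15* had 135.9, 150.2 and 165.4 CPM in treated 1, 2 and 3, against 132.9, 116.0 and 137.3 CPM in untreated 1, 2 and 3, at 0.22 ± 0.19 (unadjusted p 0.275, adjusted p 0.691, edgeR), with treated 1 inside the untreated range and 20.6% of its exon bases opposite *4731419I09Rik*. In *Adam9* the means differed by less than the spread between replicates. Without untreated 2 the log2 differences were -0.041 for *Adam10*, -0.12 for *Adam17*, 0.11 for *Adam9* and 0.15 for *Adam15*.

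Of the inhibitors, *Timp2*, which blocks MMPs and also helps MMP14 to activate MMP2, had 752.0, 881.5 and 740.9 CPM in treated 1, 2 and 3, against 769.3, 295.0 and 820.9 CPM in untreated 1, 2 and 3. Its log2 fold change was 0.33 ± 0.38, or -0.014 ± 0.13 without untreated 2. *Timp1*, an inducible inhibitor, had 93.2, 82.0 and 56.2 CPM in treated tumours, against 50.3, 93.7 and 56.1 CPM in untreated ones, with a fitted log2 difference of 0.21 ± 0.32. It was 0.52 ± 0.21 when untreated 2 was left out (unadjusted p 0.0390, adjusted p 0.257, edgeR). *Timp3*, which binds to the matrix and also blocks ADAM17 and aggrecanases, had 6.25, 19.01 and 13.9 CPM in treated tumours, against 10.7, 4.90 and 12.98 CPM in untreated ones, with 21.3% of its exon bases opposite *Syn3*, and fitted at 0.44 ± 0.49 on the log2 scale, or 0.14 ± 0.41 with untreated 2 left out. The groups overlapped in all 3, the adjusted p with all libraries lay between 0.750 and 0.814 (edgeR), and *Timp4* had 1 count in all.

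Levels between genes were compared as CPM per kb of the longest transcript. On that scale *Mmp14* averaged 217.1 in treated and 216.8 in untreated tumours, *Timp2* 213.4 and 169.4, *Mmp2* 134.1 and 169.1, and *Timp1* 87.3 and 75.6. Of the other MMPs *Mmp3* led with 51.8 in treated and 25.5 in untreated tumours, and over all 6 libraries the ranges of *Mmp14*, *Timp2* and *Mmp2* overlapped. *Mmp13* averaged 19.1 in treated and 4.22 in untreated tumours, and *Mmp9* 16.3 and 9.02. Summed over the 12 tested MMPs the level was 598.2, 519.9 and 425.7 CPM per kb in treated 1, 2 and 3, and 551.3, 359.4 and 531.7 CPM per kb in untreated 1, 2 and 3. *Mmp14* and *Mmp2* made up 61.2%, 76.0% and 68.7% of it in treated tumours and 84.5%, 73.0% and 80.7% in untreated ones, so that the other 10 MMPs summed to 232.1, 125.0 and 133.1 CPM per kb in treated, and 85.4, 96.99 and 102.5 CPM per kb in untreated tumours. The sum of the MMPs over that of the 3 tested TIMPs was 1.93, 1.55 and 1.60 in treated and 2.07, 1.92 and 1.85 in untreated tumours, and treated 1 lay within the untreated range.

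**Figure D5:**
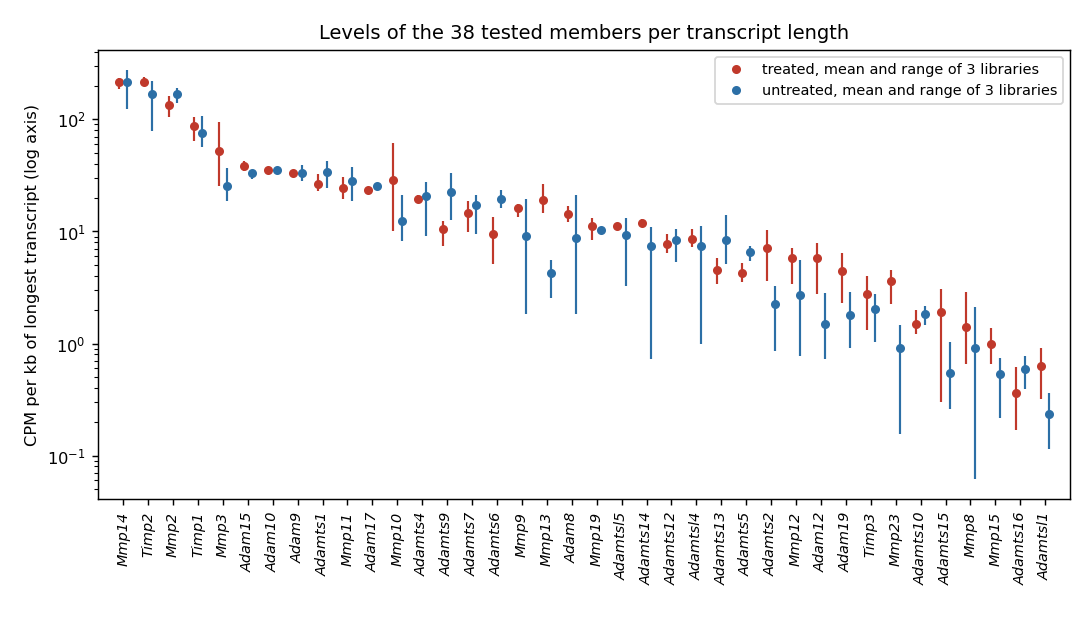
Levels of the tested members per transcript length. The y axis is CPM per kb of the longest transcript on a log scale, points are means and lines the range of 3 libraries, with treated left of untreated, ordered by the mean of both groups. *Mmp14*, *Timp2*, *Mmp2* and *Timp1* lead in both groups, and the untreated ranges of *Adamts14*, *Adamtsl4*, *Mmp9* and *Adam8* extend far down.

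The 20 members left out of the test had at most 12 counts in any library and 0 to 44 counts over all 6. They were *Adamts3*, *Adamts8*, *Adamts17* to *Adamts20*, *Adamtsl2*, *Adamtsl3*, *Mmp1a*, *Mmp1b*, *Mmp7*, *Mmp16*, *Mmp17*, *Mmp20*, *Mmp21*, *Mmp24*, *Mmp25*, *Mmp27*, *Mmp28* and *Timp4*. At these depths differences in them were not detectable.

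Genes that act on these proteases or are acted on by them were taken from 4 lists, of which 0 members passed edgeR's test adjusted over all genes. The lists were chosen with earlier results of these data known, so their counts are a description with no test. Of 17 tested activators and other inhibitors 11 were higher and 6 lower, with 4 higher at an unadjusted p under 0.05 and a median log2 fold change of 0.14, beside 49.9% of all tested genes higher and 3.32% higher at that p. Without untreated 2, 9 were higher and 8 lower, with a median of 0.072. At an unadjusted p under 0.05, 4 were higher and 3 lower (9.55% and 8.85% of all genes without untreated 2). *Plaur*, the receptor of urokinase, had 90.5, 49.8 and 107.8 CPM in treated tumours, against 24.7, 23.6 and 48.5 CPM in untreated ones. *Tfpi2*, an inhibitor of plasmin, had 4.64, 4.75 and 4.59 CPM against 1.36, 2.67 and 2.08 CPM in untreated tumours, and *A2m*, a protease trap, 1.79, 1.49 and 2.98 CPM against 0.151, 0 and 0.245 CPM in untreated ones. *Tspan14*, a partner of ADAM10, had 53.0, 58.8 and 50.1 CPM in treated tumours, against 72.2, 81.7 and 64.5 CPM in untreated ones. *Tspan14* was named as a gene of the other direction, and the rest for their low p. None of these 4 overlapped between the groups. Genes picked by p in the same comparison tend to lie apart, so that is no separate result. It cannot be set against the shares of all genes, 10.6% wholly above and 10.2% wholly below.

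Of 14 tested matrix substrates 7 were higher and 7 lower, with 2 lower at an unadjusted p under 0.05 (4.85% of all genes) and a median of -0.093. Without untreated 2, 6 were higher and 8 lower, with a median of -0.35. At that p 1 was higher and 4 lower (9.55% and 8.85% of all genes without untreated 2). *Vcan*, versican, a substrate of ADAMTS1, ADAMTS5 and ADAMTS9, had 810.7, 908.6 and 498.6 CPM in treated tumours, against 1677, 1874 and 988.2 CPM in untreated ones, without overlap (log2 fold change -1.03 ± 0.34). *Dcn*, the proteoglycan decorin, had 130.5, 200.3 and 174.7 CPM in treated tumours, against 315.1, 672.8 and 191.4 CPM in untreated ones, overlapping in treated 2. *Col1a2*, a chain of type I procollagen, which ADAMTS2 trims, had 642.2, 1706 and 2234 CPM in treated tumours, against 324.8, 47.9 and 872.6 CPM in untreated ones, and treated 1 lay below untreated 3, as it did for *Adam12*, *Adam19* and *Adamtsl1*.

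Of 20 tested ligands and receptors that are shed 12 were higher and 8 lower, with 2 in each direction at an unadjusted p under 0.05 (3.32% of all genes higher, 4.85% lower). Without untreated 2, 11 were higher and 9 lower, with 5 higher and 3 lower at that p (9.55% and 8.85% of all genes without untreated 2). *Sele*, E-selectin of endothelium, had 2.14, 1.49 and 1.49 CPM in treated tumours, against 0.452, 0.223 and 0.490 CPM in untreated ones, and *Areg*, amphiregulin, a ligand released by ADAM17, 3.21, 3.26 and 7.32 CPM against 0.603, 1.11 and 1.47 CPM in untreated ones. *Cdh1*, E-cadherin, had 0.893, 0.950 and 1.49 CPM in treated tumours, against 22.2, 7.35 and 2.94 CPM in untreated ones. *Cxcl16*, a membrane-bound chemokine that ADAM10 releases, had 14.5, 27.3 and 12.8 CPM in treated tumours, against 38.1, 59.7 and 36.3 CPM in untreated ones. The groups did not overlap in any of these genes, but they were named for their low p in the same comparison, so that is no separate result. Keratinocyte markers summed to 20.2, 4.21 and 65.5 CPM in treated and 1274, 645.9 and 5.39 CPM in untreated tumours, and their part in the level of *Cdh1* was not tested.

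Of 21 tested transcription factors and cytokines known to act on MMP genes 19 were higher and 2 lower (49.9% of all tested genes were higher), with 6 higher at an unadjusted p under 0.05 (3.32% of all genes) and a median of 0.64. As this list too was chosen with earlier results known, the counts are no independent support. *Hbegf* and *Tnf* stand on it and on the list of shed proteins. Without untreated 2, 18 were higher and 3 lower, 11 higher and 1 lower at an unadjusted p under 0.05 (9.55% and 8.85% of all genes), with a median of 0.39. *Fos* had 19.8, 79.3 and 86.3 CPM in treated 1, 2 and 3, against 8.44, 9.35 and 10.7 CPM in untreated ones, and *Fosb* 10.9, 73.9 and 150.7 CPM against 6.63, 1.56 and 8.33 CPM in untreated ones. Among treated tumours both AP-1 subunits were lowest in treated 1, as were *Fosl2* and *Junb* of the same family. *Fosl1*, *Jun* and *Jund*, others of the family, were lowest in treated 2. *Il11*, a cytokine of stromal cells, had 4.999, 2.85 and 4.84 CPM in treated tumours, against 1.81, 0.891 and 1.35 CPM in untreated ones. *Etv5*, an Ets factor, had 20.4, 21.2 and 17.5 CPM in treated tumours, against 28.2, 25.4 and 26.2 CPM in untreated ones.

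Several members differed among the treated tumours, and treated 1 was the lowest treated library in 19 of the 38, against 30.7% of all tested genes. Among them were 2 patterns that were chosen after the values were seen and carry no test. *Mmp3* and *Mmp10* were among the 8 tested genes (0.0639%) that in treated 1 exceeded every other library by more than 2 times. The others were *Hspa1a*, *Hspa1b*, *Hspb1*, *Hsph1* and *Dnajb1*, which code for heat shock proteins, and *Faim2*. *Hspa1b* had 315.1, 23.5 and 63.4 CPM in treated 1, 2 and 3, against 18.8, 5.79 and 15.6 CPM in untreated 1, 2 and 3, and *Hsph1* had 253.2, 94.9 and 120.7 CPM in treated tumours, against 83.6, 55.7 and 76.3 CPM in untreated ones. At 1.5 times there were 24 such genes with 3 members, *Mmp13* being the third, and at 3 times 2 genes and 0 members.

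*Adam12*, *Adam19*, *Adamts2*, *Adamts15*, *Adamtsl1* and *Mmp23* were among 115 genes (0.919%) that in both treated 2 and treated 3 exceeded every other library by more than 1.5 times. *Col1a2*, *Col14a1*, *Thy1*, *Sfrp2* and *Cthrc1*, known from fibroblasts, were others, picked by eye from these genes. *Fos* and *Fosb*, described above, and *Egr1*, *Nr4a1* and *Dusp1* were also among them. Of the 9 fibroblast markers, 6 had log2 fold changes below 0. *Sfrp2* had 17.3, 41.5 and 71.9 CPM in treated 1, 2 and 3, against 1.96, 3.12 and 17.3 CPM in untreated 1, 2 and 3, and *Thy1* had 20.9, 35.6 and 41.3 CPM in treated tumours, against 15.5, 10.2 and 14.8 CPM in untreated ones. At 2 times there were 41 such genes with 3 members, and at 3 times 7 genes and 0 members.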

How the data were processed

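RNA of 6 UV2237M tumours, 3 treated and 3 untreated, was analysed. The labels' protocols name Trizol extraction and a directional library kit, and the submitters' processing notes name TopHat and mm10. How reads were counted, with which strand setting and annotation, is not given in the sources used here. The authors deposited a table of raw counts for each sample, whole numbers by symbol, with totals between 4680295 and 8019294. Low counts have wide counting errors.

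With edgeR 4.0.16 (R 4.3.3), genes were filtered by filterByExpr (smallest count 10), scaled with TMM and compared with the quasi-likelihood test, 2-sided, with Benjamini-Hochberg adjustment over 12517 genes. The SE is the size of the log2 fold change divided by the root of F. CPM used TMM library sizes, and means and SDs are over 3 libraries. The alternatives were other scalings (DESeq2 size factors, upper quartile), DESeq2 1.42.0 with its default settings, limma-voom (limma 3.58.1), other filters, each library left out, the replicate number as a block, and a loess correction for GC content and length (span 0.3). DESeq2 without untreated 2 was chosen after seeing the data. The steps were tested on simulated counts.

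Lengths, GC content and positions are of GENCODE M21 (mm10), with the longest transcript per symbol, found for all 58 members, and promoter windows are of RefSeq (GRCm38.p6). The members and gene lists were chosen with earlier results of these data known. Every tested member is given with its value in each library, members that failed the filter by counts and range, and from each of the 4 related lists the 3 genes of lowest p, plus 1 that went the opposite way where there was one. Markers of mast cells, T cells, endothelium, pericytes, muscle and fat are not reported here. A chi-square comparison found no library deposited more than once.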

Additional observations from a re-analysis of the deposited data

How the results depend on the processing

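Of all tested genes, edgeR called 0 and DESeq2 46. With each library left out, edgeR called 0 to 4 genes, and DESeq2 called 257 without untreated 2. Members called numbered 0 by edgeR under every setting run, 1 by DESeq2 (*Mmp13*) and 3 by DESeq2 without untreated 2 (*Mmp13* at log2 2.41, *Adamts9* at -1.40 and *Adamts2* at 1.26). With each library left out, members at an unadjusted p under 0.05 were 1 to 10 higher and 0 to 6 lower by edgeR. Over all tested genes these numbers also moved, from 89 to 1226 higher and from 224 to 1136 lower. By DESeq2 without untreated 2, 8 members were lower (7.25% of all genes). The lowest counts came without treated 3 (1 higher, 1 lower), beside 89 higher and 224 lower of 12677 genes. Without treated 1 they were 7 higher and 0 lower, beside 279 and 295 of 12988 genes. The highest came without untreated 3 (10 higher, beside 654 of 12766 genes) and without untreated 2 (6 lower, beside 1136 of 12836 genes). The GC and length correction gave 5 lower, beside 839 of 12440 genes. The median of the collagenases was 0.45 with no filter and 0.026 to 2.24 with a library left out, that of the stromelysins, matrilysin and elastase 0.095 to 1.12 with a library left out, and that of the other MMPs 0.12 with no filter, over more genes, and 0.12 at a mean of at least 5 CPM, where *Mmp19* was the one gene left.

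Several members changed sign, most of them with log2 fold changes near 0. *Mmp14* was at -0.011 with DESeq2 size factors and with DESeq2, -0.028 with upper-quartile scaling, -0.0039 with no filter, -0.0054 at a mean of at least 5 CPM, -0.11 after the GC and length correction, and -0.29 to 0.20 with a library left out. *Adam10* was at -0.015 with DESeq2 size factors, -0.032 with upper-quartile scaling, -0.016 with DESeq2 and -0.041 to 0.036 with a library left out, and *Adam15* was at -0.24 after the GC and length correction. *Adam9* was at 0.0037 with limma-voom and -0.12 to 0.11 with a library left out, and *Adamts4* at 0.066 with limma-voom and -0.44 to 0.18. With a library left out the ranges were -0.35 to 0.082 for *Adamts12*, -0.32 to 0.57 for *Adamtsl4*, -0.14 to 0.60 for *Adamtsl5*, -0.49 to 2.31 for *Mmp8*, -0.052 to 1.76 for *Mmp10* (edgeR), -0.44 to 0.035 for *Mmp11*, -0.0069 to 0.29 for *Mmp19* and -0.014 to 0.57 for *Timp2*. The cause was not tested.

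Deviations of same-numbered libraries from their group correlated at -0.18, -0.11 and 0.093. With 3 libraries in each group and untreated 2 apart, such values cannot decide whether the numbers pair the samples. With the replicate number as a block 0 genes were called. At an unadjusted p under 0.05, 7 members were higher and 3 lower, beside 469 and 520 of 12517 genes. *Adam9* and *Adamts4* stood at log2 fold changes of 0.00089 and 0.051 there. No library correlated best with its own number. edgeR's common coefficient of variation between libraries of a group was 33.7%, or 17.3% without untreated 2.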
